A study of Mus musculus with 24 samples.

Results

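Serinc2, Mfsd2a, Krt23 and Cfd are 4 of the 17215 genes measured in mouse liver on a 1-colour Agilent expression array. They were picked from results of these same data, as genes outside fatty acid oxidation whose levels were low in livers lacking Ppara, so their differences between genotypes are given here as a description, without a test. All 5 probes that the array carries for them passed the filter on dim probes, and Cfd is the one with 2 probes. The livers came from male C57Bl/6J mice aged 8 weeks, kept on chow under a 12 h light and 12 h dark cycle and killed at ZT16, where ZT counts hours from lights on. The groups were fasted LKO (Ppara deleted in the liver, labelled PPARaLKO, 24 h without food, 6 mice), fasted WT (labelled PPARaLWT, 24 h without food, 5 mice), fed LKO (food at will, 6 mice) and fed WT (food at will, 5 mice). The promoter that drives the deletion and the deleted stretch of the gene are not given in the sources used here. The series text counts 24 mice with 6 in each group, whereas the sample labels give 22 animals on 24 arrays, because 1 fasted WT and 1 fed WT mouse were each hybridised on 2 arrays. The labels were followed and both arrays of a mouse were averaged.

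PPARα, the protein made from Ppara, is a nuclear receptor that binds fatty acids and, paired with RXR, switches on liver genes for fatty acid oxidation and ketone body synthesis during fasting. The 4 genes here have other roles. Serinc2 belongs to the serine incorporators, multipass membrane proteins named for a proposed part in putting serine into membrane lipids. Mfsd2a is a sodium-dependent transporter of lysophosphatidylcholine, known for carrying docosahexaenoic acid across the blood-brain barrier. Krt23 is a type I keratin, a protein of intermediate filaments. Cfd, also called adipsin, is the serine protease of the alternative complement pathway that cleaves factor B, and adipose tissue is its best-known source.

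The 250 bases before the start site of each gene are shown because the 4 genes were low together in LKO livers. They come from RefSeq (GRCm38.p6) and are written along the gene's strand: Serinc2 at chr4:130275587-130275836 (minus strand, the first of 3 start sites listed), Mfsd2a at chr4:122961189-122961438 (minus), Krt23 at chr11:99493121-99493370 (minus) and Cfd at chr10:79890603-79890852 (plus). Capitals mark matches to 5 motifs searched on both strands: AGGTCA (the core of many nuclear receptor sites), 2 copies of AGGNCA in the same direction with 1 base between them (the direct repeat bound by PPARα with RXR, in which N is any base and which can overlap the first motif), CACGTG (one form of E-box), TATAAA (the core of the TATA box) and GGGCGG (the core of the GC box).
Serinc2: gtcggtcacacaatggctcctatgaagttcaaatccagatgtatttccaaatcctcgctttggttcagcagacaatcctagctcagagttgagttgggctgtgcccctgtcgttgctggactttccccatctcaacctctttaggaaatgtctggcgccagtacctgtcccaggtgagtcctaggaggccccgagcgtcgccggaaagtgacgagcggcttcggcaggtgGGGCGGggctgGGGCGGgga
Mfsd2a: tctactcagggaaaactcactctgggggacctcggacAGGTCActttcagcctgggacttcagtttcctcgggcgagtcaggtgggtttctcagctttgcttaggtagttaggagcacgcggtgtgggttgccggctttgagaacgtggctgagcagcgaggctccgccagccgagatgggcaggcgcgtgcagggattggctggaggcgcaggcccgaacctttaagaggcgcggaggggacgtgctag
Krt23: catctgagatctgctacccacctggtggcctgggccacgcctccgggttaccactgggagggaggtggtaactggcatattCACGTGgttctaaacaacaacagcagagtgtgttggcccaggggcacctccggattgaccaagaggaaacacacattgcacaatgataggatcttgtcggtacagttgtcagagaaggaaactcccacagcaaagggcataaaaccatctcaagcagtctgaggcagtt
Cfd: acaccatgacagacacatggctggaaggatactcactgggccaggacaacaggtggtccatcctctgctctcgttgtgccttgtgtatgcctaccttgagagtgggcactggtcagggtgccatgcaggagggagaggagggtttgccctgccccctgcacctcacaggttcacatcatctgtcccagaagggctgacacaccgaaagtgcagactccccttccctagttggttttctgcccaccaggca

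The direct repeat was found in none of these 4 stretches, nor in the other two start regions of Serinc2, and in 0.338% of 32851 promoter stretches of the same length. Mfsd2a had 1 AGGTCA beginning 213 bases before its start site, a motif that 14.0% of all promoters hold. Krt23 had 1 CACGTG beginning 169 bases before its start site, against 6.02% of all promoters. Serinc2 had 2 matches to GGGCGG, at 20 and 9 bases before its start site, against 32.7% of all promoters. TATAAA, present in 12.4% of all promoters, was in none of the 4 stretches, and Cfd held no match to any of the 5 motifs. These letters say nothing of binding, which was not measured, or of sites farther away.

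The array reads each gene through probes of 60 bases, whose first 30 bases are shown because they identify what was measured. In the array's mm9 annotation the Serinc2 probe lies at chr4:129930742-129930801, the Mfsd2a probe at chr4:122624182-122624241 and the Krt23 probe at chr11:99339393-99339452, all on the minus strand. The Cfd probes lie at chr10:79355302-79355361 (probe 1) and chr10:79355274-79355333 (probe 2) on the plus strand and share 32 of their 60 bases, so they are not independent readings of the gene. The exon or UTR each probe falls in was not analysed here.
Serinc2: tcctagaccatgtgccttaatgagtctcta
Mfsd2a: ctgactgggcctagctcggaacactaatgt
Krt23: tccgcgctaatgggtgagtctcgacggaaa
Cfd probe 1: aacatcacaaatggtaacatgacatcctga
Cfd probe 2: agtgtcatcctaccggatgtggatcgaaaa

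Levels are log2 signals relative to the 75th percentile of their own array, so a level can be compared between mice for 1 probe but not between genes. A difference of 1 is a 2-fold change. Differences come from 1 limma fit of 4 group means to all 22 mice, with their standard errors (SE) and with p-values adjusted by the Benjamini-Hochberg method over 17215 genes, called at 0.05. The 75th percentile was 451.1 to 621.3 intensity units over the arrays, and the mean share of probes well above background was 56.4% for fasted LKO, 55.9% for fasted WT, 55.0% for fed LKO and 54.0% for fed WT arrays. All 9 hepatocyte markers on the array were well above background in every group. The number of mice limits the precision of every value, and in whole liver fewer cells of a type and less RNA per cell cannot be told apart.

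Ppara itself was measured first as a check of the genotype labels. Its brighter probe (chr15:85632110-85632169, mm9) read 4.82, 5.09 and 5.14 (lowest, median and highest) in fasted LKO livers, against 5.94, 5.94, 5.92, 6.03 and 5.68 in fasted WT livers. In fed livers it read 3.91, 4.71 and 4.94 (lowest, median and highest) in LKO, against 5.14, 4.99, 5.31, 5.41 and 5.48 in WT. LKO lay below WT without overlap in both states, and the signal stayed well above background in all LKO mice. The difference was -0.86 (SE 0.14, limma adjusted p = 5.23e-05) when fasted and -0.66 (SE 0.14, limma adjusted p = 0.00658) when fed. The fed difference at this probe did not pass when the fed groups were fitted alone (limma adjusted p = 0.088). The dimmer probe (probe 2) gave -0.99 (SE 0.14, limma adjusted p = 9.08e-06) when fasted and -0.84 (SE 0.14, limma adjusted p = 0.000735) when fed. These p-values were adjusted over probes, and the genotypes again did not overlap. Whether either probe lies within the deleted stretch is not given, so the size of these differences does not measure the deletion. Fed LKO replicate 3 had the lowest Ppara level of the group, and results that rest on it are given without it as well.

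Serinc2 was close to the bottom of its range in both LKO groups and high in both WT groups. Its level was -3.74, -3.22 and -2.83 (lowest, median and highest) in fasted LKO livers, against 2.31, 2.31, 2.67, 2.38 and 2.76 in fasted WT livers. In fed livers it was -3.45, -3.28 and -2.62 (lowest, median and highest) in LKO, against 0.47, 0.46, 0.55, 1.16 and 0.82 in WT. The LKO mice, fed or fasted, shared 1 range, and no WT mouse came near it.

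The genotype difference of Serinc2 was -5.75 (SE 0.18), or 53.8-fold lower in LKO, in fasted livers and -3.90 (SE 0.18), or 14.9-fold lower, in fed livers. Only 1 of the 17215 genes was lower in LKO than Serinc2 when fasted, and 3 were when fed. The probe was well above background in all 22 mice, so that both LKO groups had a measured level. On the 3 slides taken singly, each holding 2 arrays of every group, the difference was -5.97, -5.63 and -5.56 when fasted and -3.75, -3.88 and -4.0 when fed. Background correction by normexp gave -4.75 when fasted and -2.94 when fed.

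Serinc2 did not change with fasting past the threshold in LKO livers and rose in WT livers. Both fasting comparisons share their mice with the genotype contrasts that picked the genes. In LKO livers it averaged -3.26 ± 0.40 (SD, n = 6) when fasted and -3.21 ± 0.30 (SD, n = 6) when fed, a difference of -0.05 (SE 0.17, limma adjusted p = 0.835). In WT livers it averaged 2.49 ± 0.21 (SD, n = 5) when fasted and 0.69 ± 0.30 (SD, n = 5) when fed, a rise of 1.80 (SE 0.19, 3.47-fold, limma adjusted p = 2.71e-07). The fasting change in LKO minus that in WT was -1.85 (SE 0.26).

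Mfsd2a was low in both LKO groups, and its level moved with fasting in both genotypes. It stood at -0.08, 0.90 and 1.75 (lowest, median and highest) in fasted LKO livers, against 6.13, 5.81, 6.18, 6.03 and 5.84 in fasted WT livers. In fed livers it stood at -2.19, -1.27 and 0.58 (lowest, median and highest) in LKO, against 3.73, 2.49, 4.10, 3.74 and 3.29 in WT. Every LKO mouse, even when fasted, was below every fed WT mouse.

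The genotype difference of Mfsd2a was -5.14 (SE 0.41), or 35.2-fold lower in LKO, in fasted livers and -4.54 (SE 0.41), or 23.3-fold lower, in fed livers. In the fasted state this was the fourth lowest difference among all genes tested, and in the fed state the second. Within slides it was -5.30, -5.21 and -4.97 when fasted and -4.54, -4.42 and -4.98 when fed. None of 16 alternative settings and 22 fits without 1 mouse moved either value by more than the spread between mice.

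Mfsd2a rose with fasting in LKO livers and in WT livers. In LKO livers it averaged 0.86 ± 0.68 (SD, n = 6) when fasted and -1.07 ± 1.01 (SD, n = 6) when fed, a rise of 1.93 (SE 0.39, 3.81-fold, limma adjusted p = 0.000319). All 6 fasted LKO mice were above the fed LKO mean, but the ranges overlapped through fed LKO replicate 3, the highest fed LKO mouse at 0.58. Without that mouse the rise in LKO was 2.26 (limma adjusted p = 1.24e-05). In WT livers it averaged 6.00 ± 0.17 (SD, n = 5) when fasted and 3.47 ± 0.62 (SD, n = 5) when fed, a rise of 2.53 (SE 0.43, 5.76-fold, limma adjusted p = 6.53e-05). The fasting change in LKO minus that in WT was -0.60 (SE 0.58), and -0.26 without that mouse.

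Krt23 was high in fasted WT livers and low in the other three groups. Its level was -2.71, -2.03 and -1.77 (lowest, median and highest) in fasted LKO livers, against 2.02, 3.25, 2.61, 2.11 and 2.42 in fasted WT livers. In fed livers it was -2.92, -2.74 and -2.13 (lowest, median and highest) in LKO, against -1.94, -2.43, -1.50, -1.14 and -1.49 in WT. Fed WT replicate 2, at -2.43, fell inside the fed LKO range, so the fed genotypes overlapped.

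The genotype difference of Krt23 was -4.60 (SE 0.23), or 24.3-fold lower in LKO, in fasted livers and -0.94 (SE 0.23), or 1.92-fold lower, in fed livers. Within slides it was -4.56, -4.18 and -4.83 when fasted and -1.23, -0.86 and -0.84 when fed. Among all genes it ranked 12th from the lowest when fasted and 123rd when fed.

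Krt23 had the strongest response to fasting of the 4 genes in WT livers. In LKO livers it averaged -2.12 ± 0.32 (SD, n = 6) when fasted and -2.64 ± 0.29 (SD, n = 6) when fed, a difference of 0.52 (SE 0.22, limma adjusted p = 0.0535) that did not pass the threshold. That value sits at the threshold: its adjusted p ran over 0.0197 to 0.112 when single mice were left out, and slide as a block gave 0.0205. It passed without fasted LKO replicate 6 (0.64) or fed LKO replicate 6 (0.63), and, at 0.52, without any one of fasted WT replicates 1 and 2 and fed WT replicates 2 and 4. In WT livers it averaged 2.48 ± 0.49 (SD, n = 5) when fasted and -1.70 ± 0.50 (SD, n = 5) when fed, a rise of 4.18 (SE 0.24, 18.2-fold, limma adjusted p = 1.13e-10), the 13th largest rise of all genes. The fasting change in LKO minus that in WT was -3.66 (SE 0.33).

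Cfd was dim in LKO livers and clearly measured in WT livers, with a wide spread in every group. Probe 1 read -6.85, -5.56 and -4.11 (lowest, median and highest) in fasted LKO livers, against 0.09, -1.59, -1.49, -1.91 and -1.18 in fasted WT livers. In fed livers it read -6.53, -4.91 and -4.05 (lowest, median and highest) in LKO, against -1.82, -0.97, -2.75, -1.36 and -2.25 in WT. It was well above background in 3 of 6 fasted LKO mice and 2 of 6 fed LKO mice, and in all WT mice. At probe 1 the genotypes did not overlap in either state.

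The genotype difference of Cfd at probe 1 was -4.22 (SE 0.52), or 18.7-fold lower in LKO, in fasted livers and -3.20 (SE 0.52), or 9.20-fold lower, in fed livers. Other processing gave smaller sizes: normexp correction gave -2.09 when fasted and -1.52 when fed, and the authors' deposited table gave -2.64 and -1.97. Within slides the difference was -4.92, -4.67 and -3.73 when fasted and -4.11, -3.17 and -1.86 when fed. Without fed LKO replicate 3 the fed difference was -2.90.

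Probe 2 of Cfd was not well above background in any LKO mouse, where it averaged -6.14 ± 0.81 (SD, n = 6) when fasted and -6.32 ± 0.92 (SD, n = 6) when fed. It read -0.54, -2.45, -2.27, -2.47 and -1.94 in fasted WT livers and -2.49, -5.10, -3.49, -2.11 and -2.54 in fed WT livers, where fed WT replicate 2 was also not well above background. Set against the lowest signal that counted as above background, LKO was at least 8.84-fold lower than WT when fasted and at least 3.38-fold lower when fed. At this probe the genotypes did not overlap when fasted and overlapped when fed, where fed WT replicate 2 lay below fed LKO replicate 6, at -4.81. The mean was lower in LKO at both probes in both states.

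Cfd showed no fasting change past the threshold in either genotype. At probe 1 it averaged -5.44 ± 1.14 (SD, n = 6) in fasted LKO and -5.03 ± 0.85 (SD, n = 6) in fed LKO, a difference of -0.41 (SE 0.49, limma adjusted p = 0.527). In WT it averaged -1.22 ± 0.78 (SD, n = 5) when fasted and -1.83 ± 0.70 (SD, n = 5) when fed, a difference of 0.61 (SE 0.54, limma adjusted p = 0.382). Probe 2 gave 1.21 (SE 0.56, limma adjusted p = 0.0935) in WT. The fasting change in LKO minus that in WT was -1.02 (SE 0.73) at probe 1.

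Read against all genes, 1 of the 4 (Mfsd2a) rose with fasting in LKO livers, where 22.9% of the 17215 genes rose, and 3 of the 4 (all but Cfd) rose in WT livers, where 22.6% did. Those 3 had fasted WT mice wholly above fed WT mice, as did 17.3% of all genes. The same fasted WT mice entered the contrasts that picked the genes, which can favour a rise in WT, so these counts are a description. In the genotype contrasts that picked the 4 genes, all 4 ranges in fasted livers and 3 of 4 in fed livers lay wholly lower in LKO, with Cfd taken at probe 1, against 13.7% and 1.95% of all genes.

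**Figure D1:**
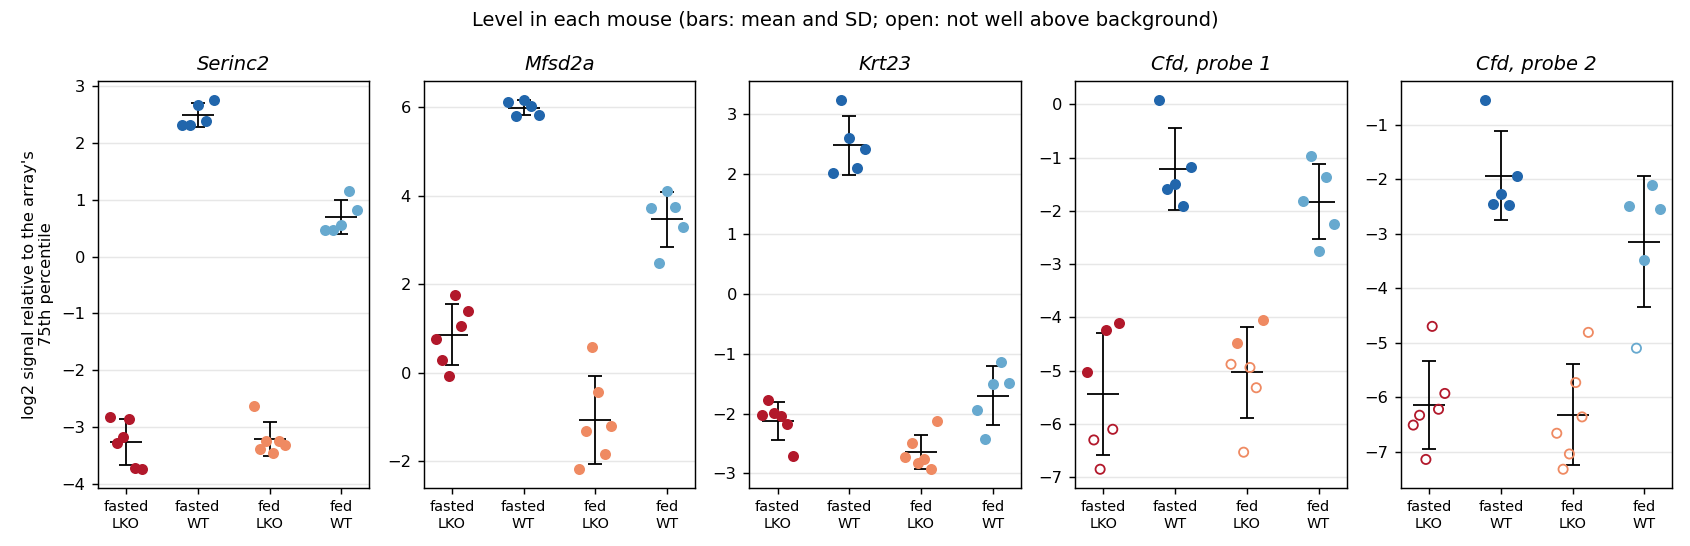
Level of each of the 5 probes in every mouse (y axis: log2 signal relative to the array's 75th percentile; x axis: fasted LKO, fasted WT, fed LKO and fed WT; points: mice, open where not well above background; bars: mean and SD). Serinc2 and Mfsd2a separate LKO from WT in both states, Krt23 is high in fasted WT alone, and Cfd is dim in LKO, with open points for 3 of 6 fasted and 4 of 6 fed mice at probe 1.

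**Figure D2:**
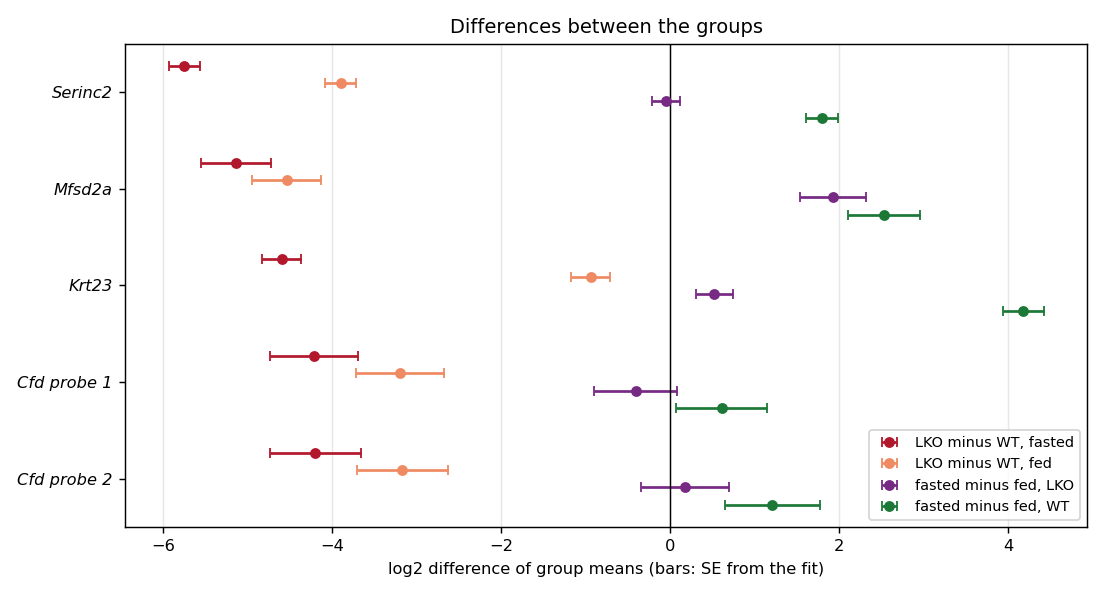
Differences between group means for each probe (x axis: log2 difference; points: limma estimate; bars: SE). The genotype differences of Serinc2 run to -5.75 when fasted, and only Mfsd2a has a fasting rise that passed the test in LKO, of 1.93, beside 2.53 in WT.

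The order of the group levels was the same for Serinc2 and Cfd at probe 1, and the same for Mfsd2a and Krt23. These orders differed only in the LKO groups, whose mice overlapped for every gene. For Serinc2 the order was fasted WT, fed WT, fed LKO and fasted LKO, and only the last pair overlapped between mice. For Mfsd2a the order was fasted WT, fed WT, fasted LKO and fed LKO, again with overlap of the last pair only. For Krt23, fasted WT stood above the rest, and fed WT, fasted LKO and fed LKO each overlapped their neighbour in the order. For Cfd at probe 1, fasted WT overlapped fed WT, and fed LKO overlapped fasted LKO.

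Spread between mice also differed. The SD of Cfd exceeded that of 99.1% of genes among fasted LKO mice, 97.9% among fasted WT mice and 96.9% in each fed group. For Mfsd2a the shares were 96.3%, 58.9%, 98.2% and 95.6% in the same groups, so that fasted WT mice were the most alike. The Cfd shares are those of probe 1, which was well above background in 3 of 6 fasted LKO and 2 of 6 fed LKO mice. The LKO spread of Cfd therefore includes signals not well above background, and is not a measure of Cfd variation between mice alone. The mice measured on 2 arrays gave an estimate of the array's own error: Serinc2 read 2.27 and 2.35 in the fasted WT mouse, and Cfd probe 1 read -2.55 and -2.94 in the fed WT mouse, the largest gap for any of the 5 probes.

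The genes most like each one were found by the root mean square difference of levels over the 22 mice, each gene centred on its own mean, among 17201 genes with a value in every mouse. They are a description with no test, because the likeness uses the same contrasts. Gene symbols are those of the array. Nearest to Serinc2 were Esrrg, a nuclear receptor, at 0.56, Caln1 at 0.68 and Slc35f2 at 0.78, against a median of 2.51 over all genes. In fasted livers Caln1 differed by -4.66 between LKO and WT. Esrrg was at least 11.4-fold and Slc35f2 at least 14.1-fold lower in fasted LKO, where neither was well above background in any mouse.

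Nearest to Mfsd2a was Serinc2, at 1.07, followed by Mtnr1a, a melatonin receptor, at 1.18 and Slc35f2 at 1.27. Nearest to Krt23 were Unc79 at 0.50, Rab30, a small GTPase, at 0.60 and Ehhadh, the bifunctional enzyme of peroxisomal beta-oxidation, at 0.71. Unc79 was well above background in all 5 fasted WT mice and in 0 mice of the other groups. Its likeness to Krt23 therefore rests in part on signals not well above background. In fasted LKO it was at least 6.44-fold lower than in fasted WT. Ehhadh differed by -3.76 between LKO and WT when fasted and by 0.02 when fed, so its genotype difference, like most of that of Krt23, was seen when fasted. It averaged 7.03 in fasted WT and 3.62 in fed WT, against 3.27 in fasted LKO and 3.64 in fed LKO. Nearest to Cfd were Fitm1, a protein of lipid droplet formation, at 0.75, Caln1 at 0.87 and Bhlhb9 at 0.92. Fitm1 differed by -3.42 when fasted and -2.37 when fed. Between the 4 genes, the difference ran over 1.07 for Serinc2 with Mfsd2a to 1.65 for Krt23 with Cfd.

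**Figure D3:**
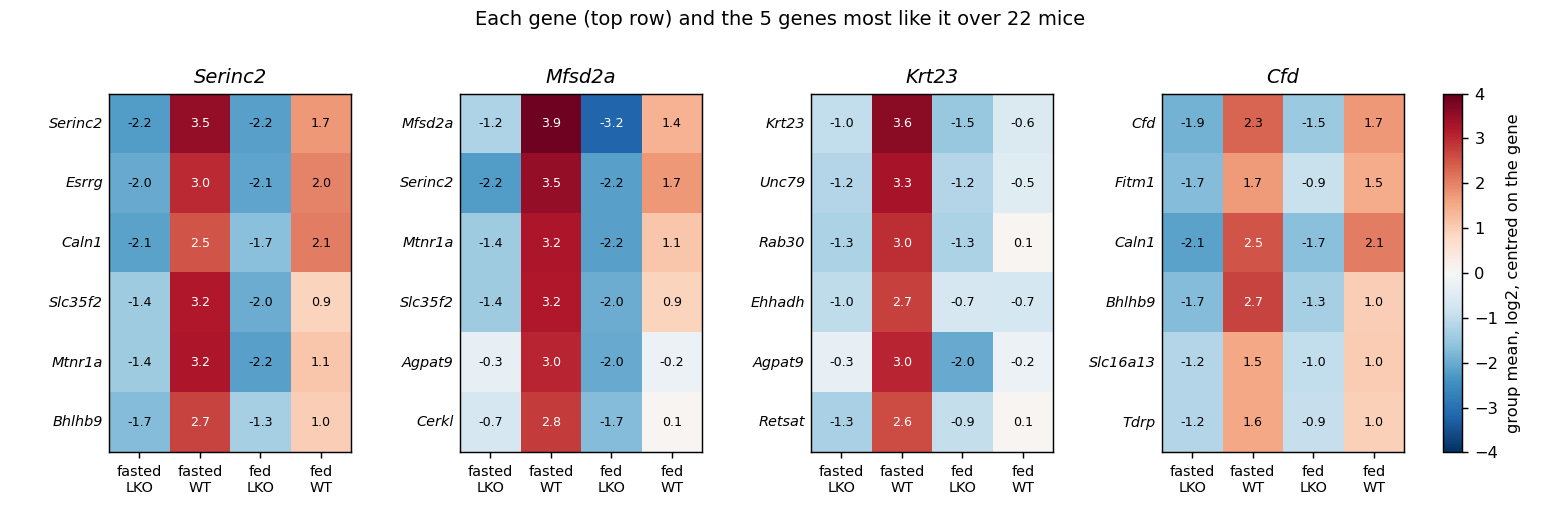
Group means of each of the 4 genes (top row of each panel) and of the 5 genes most like it (columns: fasted LKO, fasted WT, fed LKO and fed WT; colour and number: log2 level centred on the gene's mean over 22 mice). Krt23 and Unc79 are high in fasted WT alone, at 3.60 and 3.31, whereas Serinc2 and Esrrg are above their means in both WT groups. Unc79 was not well above background in any mouse outside fasted WT.

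The relatives of the 4 genes did not share their size of difference. Over all 17215 genes, 17.9% were higher and 20.0% lower in LKO than in WT when fasted, and 1.97% were higher and 1.99% lower when fed. Of the other 4 serine incorporators tested, none passed the threshold between genotypes, fed or fasted, by limma's test. Serinc1, a widely expressed member, differed by -0.10 (SE 0.06) between LKO and WT when fasted and 0.00 (SE 0.06) when fed. Serinc3, which in human cells acts against HIV-1, differed by -0.16 (SE 0.08) when fasted and -0.02 (SE 0.08) when fed. Both rose with fasting in LKO, by 0.29 (limma adjusted p = 0.00011) and 0.40 (limma adjusted p = 0.000322), and in WT by 0.40 (limma adjusted p = 1.24e-05) and 0.54 (limma adjusted p = 4.43e-05).

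Among 16 other genes of lysophospholipid transport and reacylation, 2 were higher and 4 lower in LKO when fasted, near the shares of all genes, and 1 was higher and 0 lower when fed. The median difference was -0.16 when fasted and 0.08 when fed, against -0.01 and 0.02 over all genes. Mboat1, a lysophospholipid acyltransferase, was higher in LKO by 1.39 (limma adjusted p = 7.92e-07) when fasted and 1.05 (limma adjusted p = 0.000298) when fed, opposite to Mfsd2a. Lpcat3, the main acyltransferase that returns lysophosphatidylcholine to phosphatidylcholine in liver, was lower in LKO than in WT when fasted, with a difference of -0.92 (limma adjusted p = 6.33e-07), and differed by -0.07 when fed. Gpcpd1, which breaks down glycerophosphocholine, was lower in LKO than in WT when fasted, with a difference of -0.95 (limma adjusted p = 0.0012).

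Of 17 other keratins, 2 were higher and 2 lower in LKO when fasted, against 17.9% and 20.0% of all genes, and 2 were higher and 0 lower when fed. Krt18, the type I keratin of hepatocytes, was higher in LKO by 0.58 (limma adjusted p = 0.000188) when fasted and 0.44 (limma adjusted p = 0.016) when fed, opposite to Krt23. The 2 lower when fasted, as Krt23 was, were Krt79, at -0.69 (limma adjusted p = 6.08e-05), and Krt10, at -0.23 (limma adjusted p = 0.00798). Krt19, a keratin of bile duct cells, differed by 0.42 when fasted and 0.34 when fed and passed in neither state. The 10 cholangiocyte markers were summed as linear signal relative to the 75th percentile: 14.9 to 19.9 in fasted LKO, 17.4 to 21.4 in fasted WT, 14.9 to 19.3 in fed LKO and 17.7 to 22.0 in fed WT. Slc4a2 and Spp1 gave the brightest signals of the 10, with mean levels of 3.81 and 1.87 in fasted WT, so the sums rest mostly on them. Of the 10, 3 were higher and 0 lower in LKO when fasted, against 17.9% and 20.0% of all genes, and 1 was higher and 0 lower when fed, against 1.97% and 1.99%. In fasted WT, where Krt23 was high, Tspan8 was the one marker of the list not well above background in any mouse.

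Of 30 other complement genes, 7 were higher and 6 lower in LKO when fasted, near the 17.9% and 20.0% of all genes, and 2 were higher and 0 lower when fed, against 1.97% and 1.99%. Factor B, the substrate of Cfd, is encoded by Cfb, which differed by 0.11 (SE 0.09) when fasted and 0.07 (SE 0.09) when fed. The alternative pathway genes C3 (the central component), Cfp (properdin) and Cfi (an inhibitor) did not pass between genotypes in either state. With fasting, 17 of the 30 complement genes fell and 1 rose in LKO, where 26.9% of all genes fell, and 18 fell and 2 rose in WT, where 21.8% fell, among them Cfb, by 0.41 in LKO (limma adjusted p = 0.000347) and by 0.45 in WT (limma adjusted p = 0.00038). C6, of the membrane attack complex, was higher in LKO by 1.14 (limma adjusted p = 2.51e-07) when fasted and 0.48 (limma adjusted p = 0.022) when fed, opposite to Cfd. Mbl1 was lower in LKO when fasted, as Cfd was, with a difference of -0.82 (limma adjusted p = 2.35e-05), and differed by -0.21 when fed.

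Cfd is also an adipocyte gene, so the adipocyte markers were set beside it. Their summed linear signal was 5.56 to 7.17 in fasted LKO, 5.68 to 7.37 in fasted WT, 4.42 to 5.91 in fed LKO and 3.91 to 4.92 in fed WT. The genotypes overlapped in both states. Adrb3 and Fabp4 gave the brightest signals of the 7 markers tested, so the sums rest mostly on them. When fasted, these genes moved in opposite directions between genotypes, so the overlap of the sums does not measure the share of adipocytes. Fasted WT sums lay above all fed WT sums, and fasted LKO sums overlapped fed LKO sums. Of 7 markers tested, 1 was higher and 2 lower in LKO when fasted, against 17.9% and 20.0% of all genes, and 1 was higher and 1 lower when fed, against 1.97% and 1.99%. Adrb3, an adrenergic receptor, was higher in LKO by 0.56 (limma adjusted p = 0.0013) when fasted and 0.76 (limma adjusted p = 0.000677) when fed. Fabp4, a fatty acid binding protein, was lower in LKO when fasted, with a difference of -0.69 (limma adjusted p = 0.000377), and differed by -0.12 (limma adjusted p = 0.741) when fed. The part of these markers in the Cfd difference was not tested. Adipoq, the defining secreted product of adipocytes, did not pass the filter on dim probes. It was well above background in 1 of 6 fasted LKO, 3 of 5 fasted WT, 0 of 6 fed LKO and 0 of 5 fed WT mice. Of the other markers that did not pass the filter, Tusc5 went the other way, in 2 of 6 fasted LKO and 0 of 5 fasted WT mice. Nnat was not well above background in any mouse. Cidea, a lipid droplet protein, was well above background in 0 of 6 fasted LKO, 4 of 5 fasted WT, 0 of 6 fed LKO and 1 of 5 fed WT mice, and was at least 2.45-fold lower in LKO than in WT when fasted.

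Of the other marker lists, that of endothelium moved with genotype in fasted livers: 10 of 10 markers were lower in LKO, against 20.0% of all genes, with a median of -0.43, and the summed signal was 29.5 to 36.3 in fasted LKO and 42.4 to 63.3 in fasted WT. In fed livers 0 of 10 passed by limma. For the markers of macrophages, 0 of 9 were higher and 2 lower in fasted LKO, against 17.9% and 20.0% of all genes. The same counts were 0 and 1 of 10 for stellate cells and fibroblasts, 1 and 0 of 9 for neutrophils and monocytes, 1 and 0 of 4 for pancreas and 0 and 1 of 9 for hepatocytes, and in fed livers 0 markers of these lists passed by limma. The part of the endothelial shift in the 4 genes' fasted differences was not tested. In fed livers the endothelial sums were 36.0 to 51.1 in LKO and 39.0 to 48.6 in WT.

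For scale, 20 fatty acid oxidation genes known as PPARα targets were counted in the same fit. In LKO, 0 were higher and 19 lower when fasted, against 17.9% and 20.0% of all genes, with a median of -1.74, and 0 were higher and 12 lower when fed, against 1.97% and 1.99%, with a median of -0.76. Each of the 4 genes had a larger genotype difference than these medians in both states, which follows from how they were picked. The targets Cyp4a10 and Cyp4a14, with the largest mean differences of the list, lay within the range of the 4 genes. Cyp4a10 differed by -4.96 when fasted and -3.53 when fed. Cyp4a14 differed by -5.63 when fasted and -1.67 when fed, where it did not pass (limma adjusted p = 0.154).

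**Figure D4:**
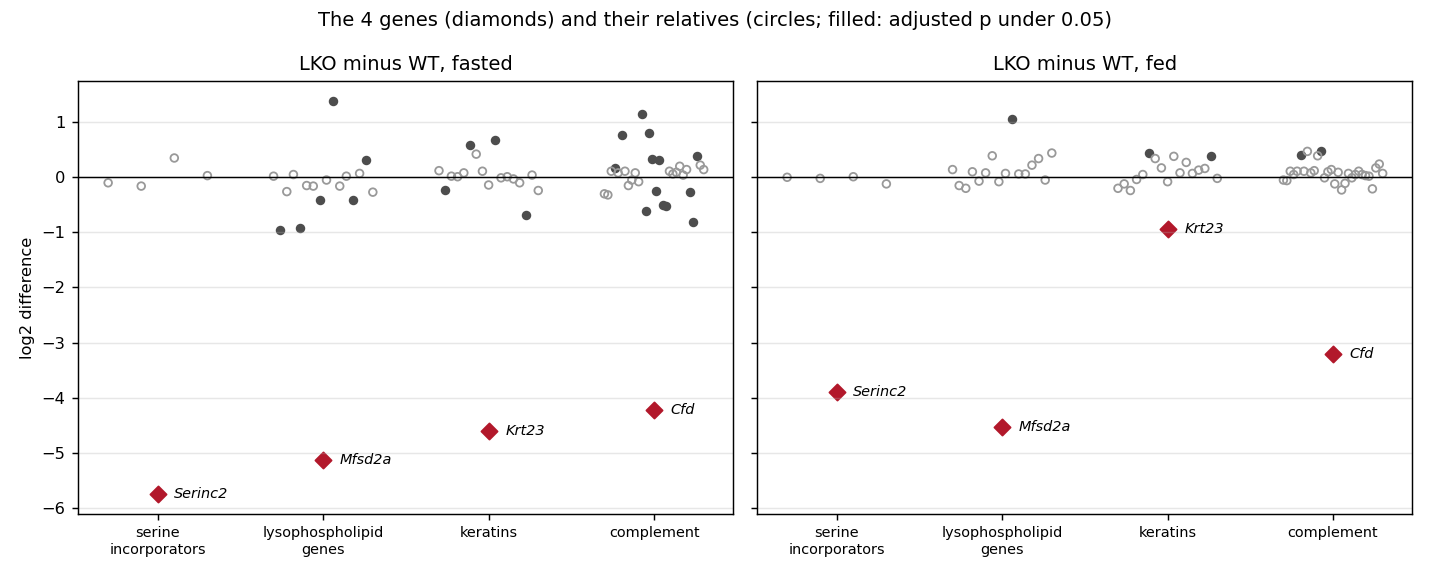
LKO minus WT difference of the 4 genes (diamonds) and of their listed relatives (circles, filled where the limma adjusted p is under 0.05), in fasted livers on the left and fed livers on the right (y axis: log2 difference). The relatives lie between -0.95 and 1.39 among the genes named, whereas Serinc2 reaches -5.75 when fasted.

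The genes beside the 4 on the chromosome were taken as the 3 nearest tested genes on each side by probe position, 24 in all. Of these, 1 was higher and 6 lower in LKO when fasted, against 17.9% and 20.0% of all genes, and 1 was higher and 0 lower when fed, against 1.97% and 1.99%. The neighbour with the largest difference was Mycl, a Myc family transcription factor whose probe lies 55.4 kb from that of Mfsd2a: it was lower in LKO by a difference of -2.42 (SE 0.36, limma adjusted p = 2.6e-05) when fasted and -0.67 (limma adjusted p = 0.39) when fed. The nearest neighbours of Cfd, Med16 at 2.37 kb and Elane at 4.4 kb, differed by 0.04 and 0.19 between LKO and WT when fasted and by -0.01 and 0.02 when fed, and neither passed. Kiss1r, 29.6 kb from Cfd, was lower in LKO than in WT when fasted, with a difference of -0.88 (limma adjusted p = 0.00137). Tinagl1, 87.7 kb from Serinc2, was lower in LKO than in WT when fasted, with a difference of -0.50 (limma adjusted p = 0.00615). Krt10, a keratin 92.7 kb from Krt23, was lower in LKO than in WT when fasted, with a difference of -0.23 (limma adjusted p = 0.00798).

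**Figure D5:**
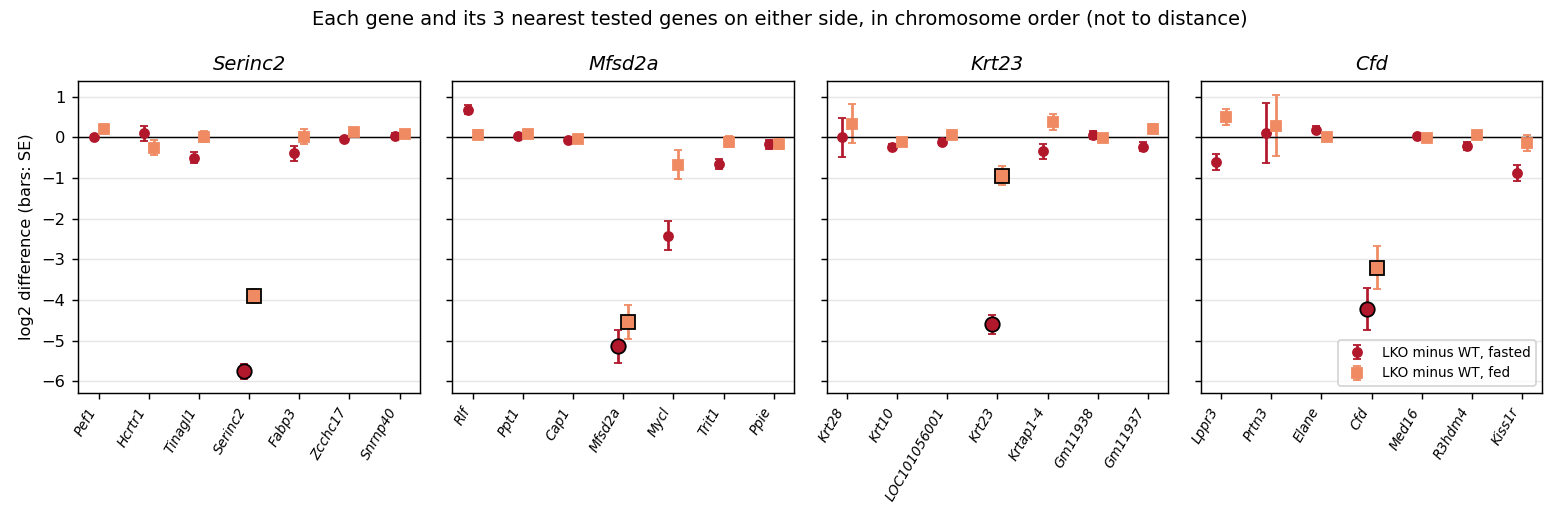
LKO minus WT differences of each of the 4 genes (large symbols) and its 3 nearest tested genes on each side, in chromosome order and not to distance (y axis: log2 difference; bars: SE; circles: fasted; squares: fed). Apart from Mycl, at -2.42 when fasted, the neighbours stay within 1 log2 unit of 0.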

How the data were processed

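Liver RNA of 22 mice was measured on 24 arrays labelled with Cy3. The intensity of each spot, background-subtracted and detrended but not normalized between arrays, came from Agilent Feature Extraction version 10.10.1.1, per the file headers. A second deposited file gives log2 values for 31356 probes, with column medians of 8.162 to 8.169, and the submitters' processing notes name limma. It served as an alternative. It gives both arrays of a repeated mouse the same value.

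From the processed signals, control spots and outlier spots were dropped, replicate spots were averaged per probe, and log2 values were set relative to each array's 75th percentile as the file header gives it. A spot not above background carries a small surrogate value, so a fold against a dim group depends on it. The array has 56605 probes, 46291 of them with a symbol. The filter kept 28138 with a signal well above background in 5 or more of 22 mice. The brightest kept probe stood for a gene, which left 17215 genes. Group means were fitted with limma 3.58.1 in R 4.3.3, and the steps were tested on simulated data.

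The 4 genes and all gene lists were chosen with earlier results of these data known. The other genes named follow a rule: per gene the 5 most alike, per list the 3 with the largest mean genotype difference, all serine incorporators, 5 alternative pathway genes, and 3 neighbours on each side. Not every gene that this rule names is reported here. Adipoq, Tusc5, Nnat, Krt79, Slc4a2 and Spp1 were named outside it, after their values were seen. Same-numbered mice did not deviate together: over 31 pairs the correlation of deviations was -0.181 to 0.177, so the numbers were not treated as pairs. Alternatives changed background correction, scaling, filters, probes, blocks, repeat arrays and the samples fitted, and left out each mouse. Whether the mice of a group came from separate litters is not given, and p-values weigh a difference against the spread between these mice only.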

Additional observations from a re-analysis of the deposited data

Results flagged for a closer look

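3 of the 28 sets of levels tested held a mouse far from the rest of its group, where chance flags about 1 in 20. Serinc2 was highest in fed LKO replicate 1, at -2.62, with the other fed LKO mice at -3.45 to -3.25. Cfd probe 2 was highest in fasted WT replicate 1, at -0.54, with the other fasted WT mice at -2.47 to -1.94, and probe 1 was highest in the same mouse, at 0.09. Ppara probe 2 was lowest in fed LKO replicate 3, at 2.48, with the others at 3.03 to 3.31.

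The fasting change in LKO minus that in WT was tested by limma for 31 relatives, markers and neighbours of the 4 genes, with adjustment over all genes. The share of all genes that passed this test is not given here, so the number that passed cannot be set against it. Many of the relatives and markers were named for large genotype differences, which favours passing. Among relatives the difference of fasting changes passed for Lpcat3, at -0.85 (adjusted p = 0.000389), C6, at 0.66 (adjusted p = 0.00883), C2, at 0.37 (adjusted p = 0.019), and Mbl1, at -0.62 (adjusted p = 0.017). Among markers it passed for the adipocyte gene Fabp4, at -0.57 (adjusted p = 0.0397). Among neighbours of Mfsd2a it passed for Mycl, at -1.76 (adjusted p = 0.0218), and Trit1, at -0.55 (adjusted p = 0.0408). It also passed for Rlf, at 0.60 (adjusted p = 0.0119), whose probe lies 1810 kb from that of Mfsd2a. Near Cfd it passed for Lppr3, at -1.12 (adjusted p = 0.0075). The Lppr3 probe was well above background in only 2 of 6 fasted LKO mice. In the authors' deposited table its fasting change in LKO was 0.21 and its fasted genotype difference 0.26, both opposite in sign to the main fit.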

How the results depend on the processing

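Each result was recomputed under 16 other settings (15 for the difference in fasting change between genotypes), of which scaling to the 75th percentile over all probes was chosen after seeing the data, and without each of 22 mice. The rises of Serinc2, Mfsd2a and Krt23 in WT and of Mfsd2a in LKO passed in every fit, and all genotype differences of the 4 genes stayed negative. Normexp correction gave -4.75 for Serinc2, -4.01 for Krt23 and -2.09 for Cfd in fasted livers, and -2.94 for Serinc2 and -1.52 for Cfd in fed livers. The authors' deposited table gave -5.15 for Serinc2 and -2.64 for Cfd when fasted, and -3.36 and -1.97 when fed. The cause was not tested. The fasting difference of Krt23 in LKO passed with quantile normalization (0.54, adjusted p = 0.0478), scaling over probes above background on all arrays (0.54, adjusted p = 0.0458), slide as a block (0.52, adjusted p = 0.0205), only the groups compared (0.52, adjusted p = 0.02) and an intensity trend (0.52, adjusted p = 0.0445), and in 6 of 22 fits without 1 mouse, over a range of 0.46 to 0.64. With the replicate block it was 0.52 (adjusted p = 0.0884), and the replicate block changed no call of the 4 genes. The number of genes higher in fed LKO, 339, was 224 without the filter on dim probes, 178 with only the groups compared, and 217 to 471 without single mice, with 217 without fed WT replicate 1. With only the groups compared, 196 genes were lower and 374 changed, and Ppara in fed livers did not pass (-0.66, adjusted p = 0.088). Over 82 other genes compared here, 12069 recomputed values kept their direction and side of the threshold, 206 no longer passed, 102 newly passed and 3 reversed. Direction reversed for Lppr3 in the deposited table (0.21 with fasting in LKO, 0.26 between genotypes when fasted) and for Caln1 with the mean of its probes (0.30 with fasting in LKO). Array signal near background limits how precisely the size of the Cfd differences can be given.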
